A study of Homo sapiens with 17 samples.

Results

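The genes described here are 43 that copy DNA in S phase or prepare cells to do so, chosen by symbol: the origin recognition and licensing genes (ORC1, ORC2, ORC6, CDC6, CDT1, GMNN), the MCM helicase (MCM2 to MCM7), the origin firing genes (MCM10, CDC45, GINS1 to GINS4, CDC7, DBF4, CCNE1, CCNE2), polymerases and primase (POLA1, POLA2, PRIM1, PRIM2, POLD1, POLD3, POLE, POLE2), the clamp, its loader and lagging-strand enzymes (PCNA, RFC2 to RFC5, FEN1, LIG1), deoxynucleotide supply (RRM1, RRM2, TYMS, TK1) and fork protection (CLSPN, TIPIN). All 43 were found once in each of the 2 count tables, among 60662 genes that both tables hold, and all 43 passed the filter on low counts in every fit. The rule itself uses gene names alone, but the genes were chosen with earlier results of these data known. The study followed the response to retinoic acid, which drives neuroblastoma cells into differentiation or death, in CHP-134, an established and very sensitive human neuroblastoma line with amplified MYCN.

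Total RNA depleted of ribosomal RNA was sequenced from CHP-134 cells in culture and from CHP-134 tumors. The 8 culture libraries came from cells given the solvent DMSO and from cells exposed for 1, 3 or 6 days to ATRA, the all-trans isomer of retinoic acid, at 2 µM, with 2 libraries per group. The 9 tumor libraries came from 4 tumors of mice treated with 13-cis-retinoic acid (RA tumors), given by mouth at 25 mg/kg in each of 2 doses per day, and from 5 tumors of untreated mice (control tumors). Tumors grew under the skin of female athymic nude mice from luciferase-labeled CHP-134 cells, so these hosts lack most T cells, and both tumor groups derive from 1 cell line. Few CHP-134 cells outlive the longest ATRA exposure, so the 6-day libraries hold the RNA of survivors. Cells and tumors were also prepared with different library kits.

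Libraries held 31607051 to 39422897 counts in cells and 17266558 to 29078889 in tumors, and each of the 43 genes had at least 82 counts in every library. Of the neuroblastoma markers, the amplified MYCN stood at 3006 to 3136 CPM (counts scaled to a common library total) in RA tumors, 2157 to 3719 CPM in control tumors and 912 to 2142 CPM in cells, and HAND2, a transcription factor of the sympathetic lineage, at 133 to 152 CPM in RA tumors, 136 to 161 CPM in control tumors and 185 to 276 CPM in cells. GATA3 was far lower in tumors, at 30.4 to 41.3 CPM in RA tumors, 33.6 to 53.9 CPM in control tumors and 202 to 299 CPM in cells. PHOX2A was at 7.32 to 11.2 CPM in RA tumors, where it was called higher than in control tumors (1.02 ± 0.21, FDR = 0.0312 in edgeR), 3.03 to 6.7 CPM in control tumors and 30.3 to 70.7 CPM in cells. ISL1 ranged from 12.8 to 27.8 CPM in RA tumors, 6.08 to 21.8 CPM in control tumors and 5.03 to 48.8 CPM in cells. The noradrenaline enzymes TH and DBH were low, at most 7.39 CPM, and DBH had no count in 1 cell library. Markers of host-like cell types were low in tumors. The 6 leukocyte markers summed to 1.87 to 2.89 CPM in RA tumors and 2.27 to 4.24 CPM in control tumors, and the 5 endothelial markers to 1.17 to 1.99 CPM in RA tumors and 1.5 to 4.46 CPM in control tumors. Reads were aligned to the human genome, so these sums cover human-like sequence only. The 6 fibroblast markers summed to 25.7 to 38.9 CPM in RA tumors and 27.4 to 121 CPM in control tumors, where control tumor 4 was highest.

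DNA replication starts at origins that the origin recognition complex marks in G1. CDC6 and CDT1 then load the ring of MCM2 to MCM7, the core of the replicative helicase, and geminin (GMNN) blocks CDT1 once S phase begins. The kinases CDC7-DBF4 and CDK2 with cyclin E switch the loaded rings on by recruiting CDC45 and the GINS complex, after which polymerase alpha-primase starts each strand and polymerases epsilon and delta extend it, held on DNA by the PCNA clamp. Many of these genes are transcribed in late G1 under E2F factors, which the retinoblastoma protein restrains in cells that do not divide, so their RNA is widely read as a measure of cycling cells. In bulk RNA, fewer cycling cells and less of these transcripts per cell cannot be told apart.

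The main question in culture was how far the replication genes moved at each time in ATRA. After 6 days, 42 of the 43 were called lower than in DMSO cells, that is with an FDR under 0.05 and a difference above 2-fold in edgeR's quasi-likelihood test, and none was called higher. Over all 20237 genes tested, 12.3% were called lower and 18.8% higher. The median log2 fold change of the 43 genes was -2.24 (4.73-fold lower), where that of all genes tested was 0.04. In every case both 6-day libraries lay below both DMSO libraries, an order that was not counted over all genes tested. Together the 43 genes took 0.108% of all counts in each 6-day library and 0.526% to 0.528% in DMSO cells. The exception to the calls was ORC2, which passed the FDR threshold but fell by less than the fold threshold.

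**Figure D1:**
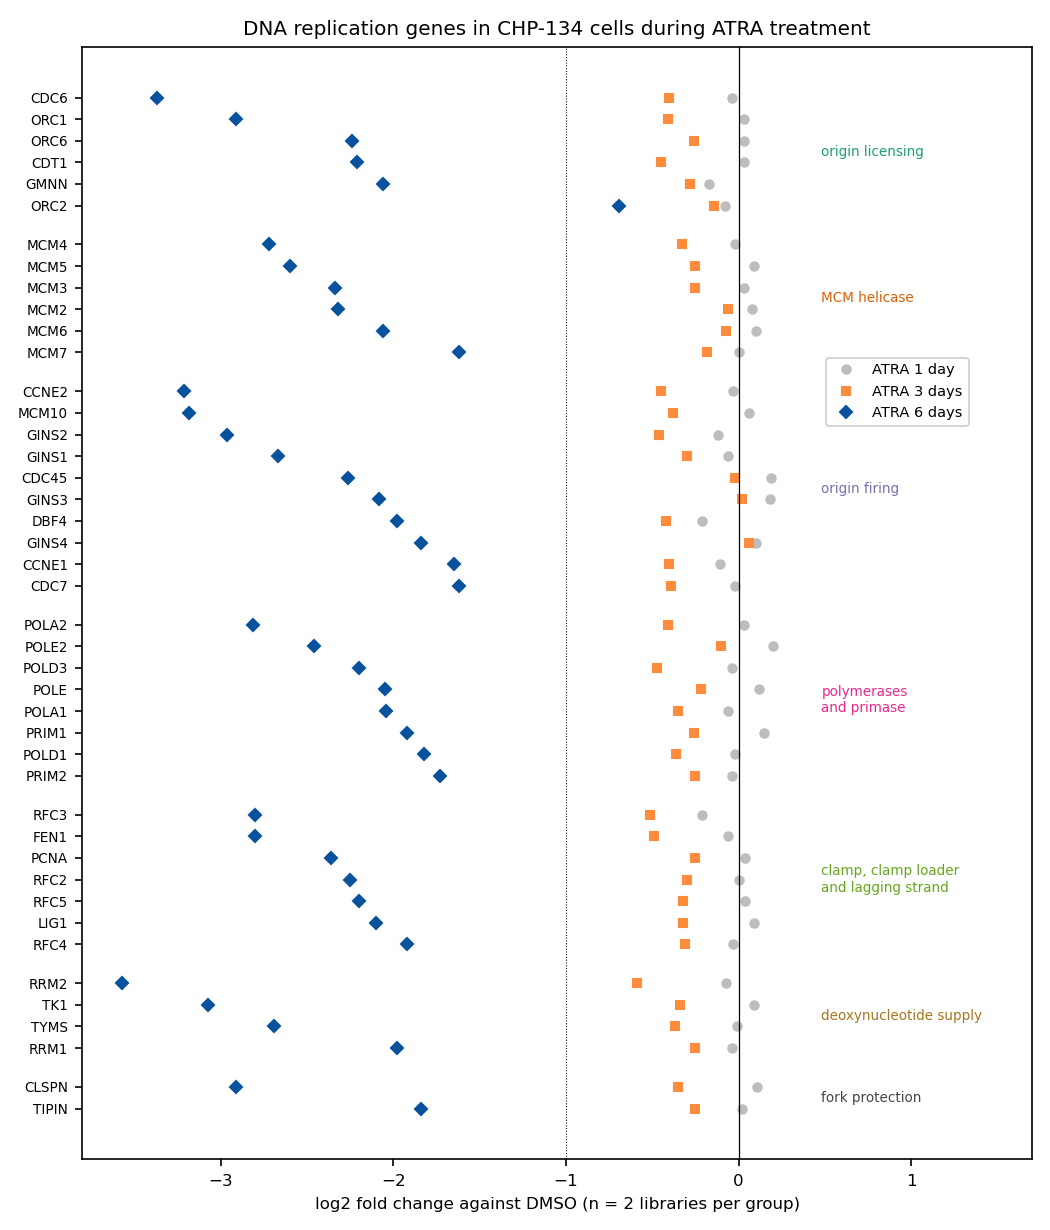
Log2 fold change against DMSO cells (x axis) of each of the 43 replication genes (y axis, grouped by role) after 1 day (grey circles), 3 days (orange squares) and 6 days (blue diamonds) of ATRA, with 2 libraries per group; the dotted line marks a 2-fold fall. The 1-day values sit between -0.21 and 0.20, the 3-day values between -0.59 and 0.06, and the 6-day values between -3.57 and -0.69.

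Since these genes fell together, their promoters were searched for 2 motifs. RefSeq (GRCh38.p14) windows of 300 bases, 250 before and 50 after the start, matched 38 of the 43 genes; MCM4, MCM5, GINS4, CCNE2 and POLD3 had no entry. The E2F consensus was searched on both strands in its 4 spellings TTTCCCGC, TTTCGCGC, TTTGCCGC and TTTGGCGC, which do not overlap the other motif, CCAAT. An E2F consensus occurred in 18 of the 38 windows (47.4%), against 908 of 27305 windows of all genes (3.33%) and 5.02% of the 11734 windows of genes tested in cells. CCAAT, the box bound by NF-Y, occurred in 20 of the 38 windows (52.6%), against 35.7% of all windows. The median 6-day log2 fold change was -2.35 in the 18 genes with an E2F consensus and -2.02 in the 20 without it. As a description with no test, the 2 sets overlapped widely. RRM2, the gene that fell most, had no match, nor had MCM10 (-3.18), TK1 (-3.07) or ORC1 (-2.91). MCM7 had 2 matches and a log2 fold change of -1.62, and MCM6 had 4 and -2.06. The windows of the 3 genes that fell most among those with the motif are printed, with ORC2, the gene that fell least. Since the first 3 were chosen for holding the motif, the printed windows do not compare steep with slight falls. Capitals mark the E2F consensus on either strand.
CDC6, chr17:40287629-40287928, + strand: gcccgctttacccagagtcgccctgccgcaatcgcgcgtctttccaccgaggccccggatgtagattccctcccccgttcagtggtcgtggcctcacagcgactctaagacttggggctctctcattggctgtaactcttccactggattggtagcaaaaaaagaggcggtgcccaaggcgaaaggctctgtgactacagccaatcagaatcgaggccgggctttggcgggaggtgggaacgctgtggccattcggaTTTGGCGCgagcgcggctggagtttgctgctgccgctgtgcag
GINS2, chr16:85688905-85689204, - strand: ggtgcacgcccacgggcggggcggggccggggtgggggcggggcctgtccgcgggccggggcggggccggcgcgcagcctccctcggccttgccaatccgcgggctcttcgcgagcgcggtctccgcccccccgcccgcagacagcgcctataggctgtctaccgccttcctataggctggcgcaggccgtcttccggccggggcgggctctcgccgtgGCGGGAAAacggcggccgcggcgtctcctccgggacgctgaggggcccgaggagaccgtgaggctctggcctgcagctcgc
CLSPN, chr1:35769929-35770228, - strand: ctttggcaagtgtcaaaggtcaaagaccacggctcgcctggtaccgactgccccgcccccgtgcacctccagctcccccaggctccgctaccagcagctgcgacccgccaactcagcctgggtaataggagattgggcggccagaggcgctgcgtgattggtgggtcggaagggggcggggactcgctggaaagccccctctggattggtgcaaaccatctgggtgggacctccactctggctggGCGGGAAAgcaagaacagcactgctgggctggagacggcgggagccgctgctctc
ORC2, chr2:200963611-200963910, - strand: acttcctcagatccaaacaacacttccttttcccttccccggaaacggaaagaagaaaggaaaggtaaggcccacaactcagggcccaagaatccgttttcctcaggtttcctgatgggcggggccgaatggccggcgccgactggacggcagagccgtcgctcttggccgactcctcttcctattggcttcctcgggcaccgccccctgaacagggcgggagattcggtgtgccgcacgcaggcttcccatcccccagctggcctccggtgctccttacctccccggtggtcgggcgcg
Each of the first 3 windows held 1 match, which began 7 bases after the annotated start in CDC6, 31 bases before it in GINS2 and 5 bases before it in CLSPN. CDC6 and CLSPN also held 3 CCAAT boxes each, counting both strands, while GINS2 and ORC2 held 1 each. A match is a description of letters and does not show that a factor binds there.

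Of the 6 origin licensing genes, 5 were called lower at 6 days. CDC6, the ATPase that loads the helicase, had 19.95 and 18.99 CPM in 6-day cells, against 201 CPM in each DMSO library, a log2 fold change of -3.37 ± 0.035 (SE, 10.3-fold lower, FDR = 3.54e-41). ORC1, the cell-cycle regulated subunit of the origin recognition complex, had 5.83 and 5.61 CPM in 6-day cells, against 44.8 and 41.3 CPM with DMSO (-2.91 ± 0.067, FDR = 2.03e-30). ORC2, a core subunit of the same complex, had 44.3 and 42.7 CPM against 70.7 and 70.1 CPM (-0.69 ± 0.038, FDR = 1.53e-18). The 3 sit at both ends of the range: ORC1 and ORC2 encode parts of 1 complex, and their log2 fold changes differed by more than 2 units. ORC6 (-2.24), CDT1 (-2.21) and GMNN (-2.06), the licensing factor and its inhibitor among them, lay near the median of the 43.

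All 6 MCM helicase genes fell, by a median of 2.33 on the log2 scale. MCM4 had 84.0 and 87.7 CPM in 6-day cells, against 565 and 563 CPM in DMSO cells (-2.72 ± 0.025, FDR = 9.97e-43). MCM5, which forms with MCM2 the gate through which the ring opens, had 26.3 and 27.6 CPM against 161 and 166 CPM (-2.60 ± 0.034, FDR = 5.1e-38). MCM7 fell least, with 175 and 173 CPM against 534 and 537 CPM (-1.62 ± 0.023, FDR = 1.17e-36). The 6 subunits form a ring with 1 copy of each, yet their transcripts did not keep their proportions. Per kilobase of transcript, MCM7 made up 49.1% to 50.1% of MCM2 to MCM7 counts in 6-day cells and 35.5% in both DMSO libraries, while MCM4 made up 14.6% to 15.1% and 22.6% to 22.8%. The share of MCM2 was 12.8% in both 6-day libraries and 14.9% to 15.0% with DMSO, and that of MCM6 was 6.09% to 6.17% and 5.83% to 6.06%. With 2 libraries per group these shares carry no test. AP4M1 on the opposite strand overlaps 7.9% of the exon bases of MCM7, and another gene on the opposite strand 23.6% of those of MCM2.

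**Figure D2:**
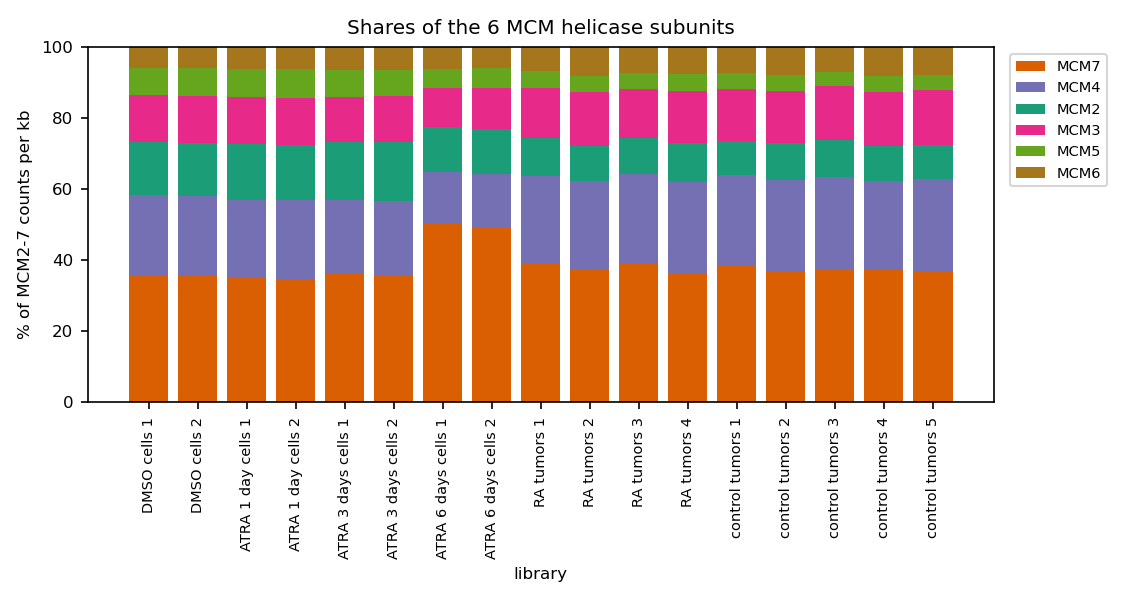
Share of each MCM helicase gene (y axis, % of the summed counts per kilobase of MCM2 to MCM7) in each of the 17 libraries (x axis). The MCM7 share is 49.1% to 50.1% at 6 days of ATRA, and between 34.7% and 39.2% in the other 15 libraries.

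All 10 origin firing genes were called lower at 6 days. CCNE2, which encodes cyclin E2, had 3.98 and 3.35 CPM in 6-day cells, against 35.1 and 32.5 CPM in DMSO cells (-3.21 ± 0.080, FDR = 3.5e-29). Its relative CCNE1, cyclin E1, fell less, by 1.65 ± 0.074 on the log2 scale. MCM10, a helicase-associated factor needed for origin firing, had 14.7 and 15.3 CPM against 137 and 134.4 CPM (-3.18 ± 0.040, FDR = 1.6e-38). The smallest fall of the group was that of CDC7, the catalytic subunit of the firing kinase, with 11.2 and 11.3 CPM against 35.8 and 33.3 CPM (-1.62 ± 0.062, FDR = 2.08e-23), and its regulatory subunit DBF4 fell by 1.98. Within GINS, the 4-subunit helicase partner, GINS2 (-2.96) and GINS1 (-2.67) fell further than GINS3 (-2.08) and GINS4 (-1.84), and CDC45 fell by 2.26. Overlap with other genes on the opposite strand covers 37.1% of the exon bases of CCNE2, 23.4% of GINS4 and 10.9% of GINS3, so their counts are less certain.

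The 8 polymerase and primase genes were all called lower. POLA2, the regulatory subunit of polymerase alpha, had 10.2 and 10.5 CPM in 6-day cells, against 72.1 and 73.1 CPM in DMSO cells (-2.81 ± 0.052, FDR = 2.12e-33). POLE2, the second subunit of the leading-strand polymerase epsilon, had 2.49 and 2.44 CPM against 14.2 and 13.0 CPM (-2.46 ± 0.100, FDR = 5.47e-22), whereas the catalytic subunit POLE fell by 2.05. PRIM2, the large primase subunit, had 12.1 and 11.8 CPM against 39.1 and 40.2 CPM (-1.73 ± 0.057, FDR = 2.74e-25), the smallest fall of the 8. The catalytic subunits of the other complexes, POLA1 (-2.04), POLD1 (-1.82) and PRIM1 (-1.92), lay close together, and the delta subunit POLD3 fell by 2.20. PRIM2 was among 8 of the 43 genes with fractional counts in cells, which arise where reads are shared between genes or copies. The others were DBF4, ORC6, POLA2, POLD1, PRIM1, RRM2 and TIPIN, and 18 of the 43 had fractional counts in tumors. PRIM2 also has near-identical copies in the genome, so its values are less certain. POLA2 and PRIM1 overlap other genes over 21.3% and 19.1% of their exon bases.

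All 7 genes of the clamp, its loader and the lagging strand were called lower, over a narrow range. RFC3, a small subunit of the clamp loader, had 17.6 and 17.7 CPM in 6-day cells, against 123 CPM in each DMSO library (-2.80 ± 0.039, FDR = 4.36e-37). FEN1, the nuclease that trims Okazaki fragment flaps, had 16.1 and 17.5 CPM against 118 and 116 CPM (-2.80 ± 0.043, FDR = 5.29e-36). RFC4 fell least, with 15.2 and 14.8 CPM against 57.1 and 56.2 CPM (-1.92 ± 0.050, FDR = 1.15e-28). The clamp itself, PCNA, fell by 2.36, and the ligase LIG1 that seals the fragments by 2.10. RFC2 (-2.25) and RFC5 (-2.20) lay between.

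The 4 deoxynucleotide supply genes had the lowest median of the role groups, -2.88. RRM2, the regulated small subunit of ribonucleotide reductase, had 33.5 and 34.7 CPM in 6-day cells, against 408 and 403 CPM in DMSO cells (-3.57 ± 0.029, FDR = 3.31e-44), the largest fall of the 43. TK1, the S-phase thymidine kinase, had 12.2 and 11.8 CPM against 98.5 and 104 CPM (-3.07 ± 0.056, FDR = 3.06e-22). RRM1, the large subunit of the same reductase, had 54.3 and 55.1 CPM against 218 and 214 CPM (-1.98 ± 0.028, FDR = 9.22e-37). The 2 subunits thus changed place: per kilobase, RRM2 made up 37.3% to 37.8% of RRM1 plus RRM2 counts in 6-day cells and 64.4% to 64.6% with DMSO. TYMS, thymidylate synthase, fell by 2.69, but 47.9% of its exon bases overlap ENOSF1 and TYMSOS on the other strand. Of the fork protection genes, CLSPN (claspin, an adaptor of the checkpoint kinase CHK1) had 28.2 and 30.3 CPM against 223 and 218 CPM (-2.91 ± 0.034, FDR = 2.23e-39). TIPIN, the partner of TIMELESS, had 5.25 and 5.47 CPM against 19.4 and 18.9 CPM (-1.84 ± 0.082, FDR = 3.18e-21).

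The fall came late. At 1 day none of the 43 genes passed a 2-fold difference. At an FDR under 0.05 alone, 9 were higher than in DMSO cells (13.1% of all genes tested were) and 4 were lower (13.3% of all genes), so 30.2% of the 43 genes and 26.4% of all genes moved at that threshold, and the median of the 43 was 0.00. RFC3 had 108 and 105 CPM at 1 day, against 123 CPM in each DMSO library (-0.21 ± 0.030, FDR = 7.97e-07), and DBF4 had 72.4 and 71.6 CPM against 84.2 and 82.3 CPM (-0.21 ± 0.035, FDR = 1.14e-05). GMNN had 37.9 and 37.1 CPM against 42.3 and 41.8 CPM (-0.17 ± 0.047, FDR = 0.00641), and RRM2 was the 4th of the lower genes. On the other side, POLE2 had 16.0 and 15.3 CPM against 14.2 and 13.0 CPM (0.20 ± 0.076, FDR = 0.045), CDC45 had 68.7 and 67.2 CPM against 59.3 and 60.3 CPM (0.19 ± 0.039, FDR = 0.000287), and GINS3 had 48.95 and 43.92 CPM against 41.2 and 40.6 CPM (0.18 ± 0.050, FDR = 0.00563). MCM2, MCM5, MCM6, PRIM1, POLE and CLSPN were the other higher genes. The count of higher genes depended on the tool and on single libraries: DESeq2 gave 3 (CDC45, POLE and CLSPN), leaving out ATRA 1 day replicate 1 gave 4 and DMSO replicate 2 gave 6. Without DMSO replicate 1, 2 genes were lower.

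At 3 days no gene was yet called at 2-fold, but 39 of 43 were lower than in DMSO cells at an FDR under 0.05 (23.1% of all genes tested were) and none was higher. The median log2 fold change was -0.32, a 1.25-fold fall. RRM2 led again, with 271 and 267 CPM at 3 days, against 408 and 403 CPM in DMSO cells (-0.59 ± 0.023, FDR = 1.89e-22). RFC3 had 85.1 and 87.8 CPM against 123 CPM in each DMSO library (-0.51 ± 0.031, FDR = 2.04e-16), and FEN1 had 82.5 and 84.0 CPM against 118 and 116 CPM (-0.49 ± 0.033, FDR = 4.82e-15). The 4 genes that did not pass were all parts of the replicative helicase or of polymerase epsilon: GINS4 (27.4 and 27.0 CPM against 26.03 and 26.24 CPM; 0.06), GINS3 (40.3 and 42.5 CPM against 41.2 and 40.6 CPM; 0.02), CDC45 (58.5 and 59 CPM against 59.3 and 60.3 CPM; -0.02) and POLE2 (12.3 and 13.1 CPM against 14.2 and 13.0 CPM; -0.10). CDC45, GINS3 and POLE2 were among the genes higher at 1 day.

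Between days 1 and 3, 40 of the 43 genes fell at an FDR under 0.05, where 17.6% of all genes tested did. Both 3-day libraries lay below both 1-day libraries for all 43, an order that was not counted over all genes tested. The steepest were RRM2 (271 and 267 CPM at 3 days, against 390.1 and 382 CPM at 1 day; -0.52 ± 0.023), CDT1 (56.5 and 54.9 CPM against 77.3 and 77.4 CPM; -0.47 ± 0.038) and CLSPN (169 and 177 CPM against 237 and 240.2 CPM; -0.46 ± 0.027). The 3 that did not pass were GINS4 (27.4 and 27.0 CPM against 27.9 and 28.1 CPM; -0.04), ORC2 (63.4 and 64.1 CPM against 66.4 and 66.6 CPM; -0.06) and GMNN (35.1 and 34.4 CPM against 37.9 and 37.1 CPM; -0.11). Geminin RNA was thus lower than in DMSO cells at 1 day and at 3 days, and its fall between days 1 and 3 did not pass. The fall of its target CDT1 in that step did pass, but these genes were not tested against each other.

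Between days 3 and 6, 42 genes were called lower, where 8.41% of all genes tested were, and the exception was again ORC2. The median log2 fold change of this step was -1.99. CDC6 had 19.95 and 18.99 CPM at 6 days, against 151 and 154 CPM at 3 days (-2.97 ± 0.036), RRM2 had 33.5 and 34.7 CPM against 271 and 267 CPM (-2.98 ± 0.030) and MCM10 had 14.7 and 15.3 CPM against 107 and 102 CPM (-2.80 ± 0.041). The least steep were ORC2 (44.3 and 42.7 CPM against 63.4 and 64.1 CPM; -0.55 ± 0.039), CDC7 (11.2 and 11.3 CPM against 27.0 and 25.7 CPM; -1.23 ± 0.065) and CCNE1 (7.77 and 7.29 CPM against 17.1 and 18.8 CPM; -1.25 ± 0.077). Over the 43 genes, the last step made up a median of 86.3% of the whole 6-day log2 difference, with the lowest share in CCNE1 (75.7%) and the highest in GINS4 (103%), whose 3-day estimate was 0.06 and had not passed the test. The 1-day, 3-day and 6-day comparisons share the DMSO libraries.

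A second list held 44 replication genes outside the 43, chosen from textbook roles. Both lists were chosen with earlier results of these data known, so the second is no independent check, and their counts depend on that choice. At 6 days 32 of the 44 were called lower, 1 higher and 11 not called, with a median of -1.74. Over all 20237 genes tested, 12.3% were called lower and 18.8% higher. The steepest falls were in ASF1B, a histone chaperone (3.52 and 4.0 CPM at 6 days, against 37.4 and 36.6 CPM with DMSO; -3.30 ± 0.079), TICRR, the firing factor also called treslin (16.6 and 15.1 CPM against 144 and 140.0 CPM; -3.16 ± 0.041), and DTL, an adaptor that marks CDT1 for destruction (23.2 and 21.5 CPM against 166 and 169 CPM; -2.91 ± 0.037). CDC25A, the phosphatase that activates CDK2 (-2.76 ± 0.053), and CHAF1B, a chromatin assembly subunit (-2.53 ± 0.063), followed. The gene called higher was POLD4, the small subunit of polymerase delta, with 5.65 and 5.26 CPM against 1.67 and 1.61 CPM (1.73 ± 0.17, FDR = 1.98e-11). Among the other origin recognition subunits, ORC3 was called lower (22.3 and 22.9 CPM at 6 days, against 51.4 and 49.6 CPM with DMSO, -1.16 ± 0.047), while ORC4 (0.27) and ORC5 (-0.77) were not called. Of the rest not called, RRM2B (0.48) is the reductase subunit induced by p53, TK2 (0.99) the mitochondrial thymidine kinase and SAMHD1 (-0.89) an enzyme that breaks deoxynucleotides down. TOP1 (-0.85), DONSON (-0.95), ASF1A (-0.70), RNASEH2C (-0.69), MCM9 (-0.43) and CHTF8 (-0.04) were the others. Mitotic markers moved with the replication genes: all 8, among them MKI67 and TOP2A, were called lower at 6 days (median -2.49), and they summed to 363 to 368 CPM in 6-day cells and 2009 to 2045 CPM in DMSO cells. Their part in the result was not tested.

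**Figure D3:**
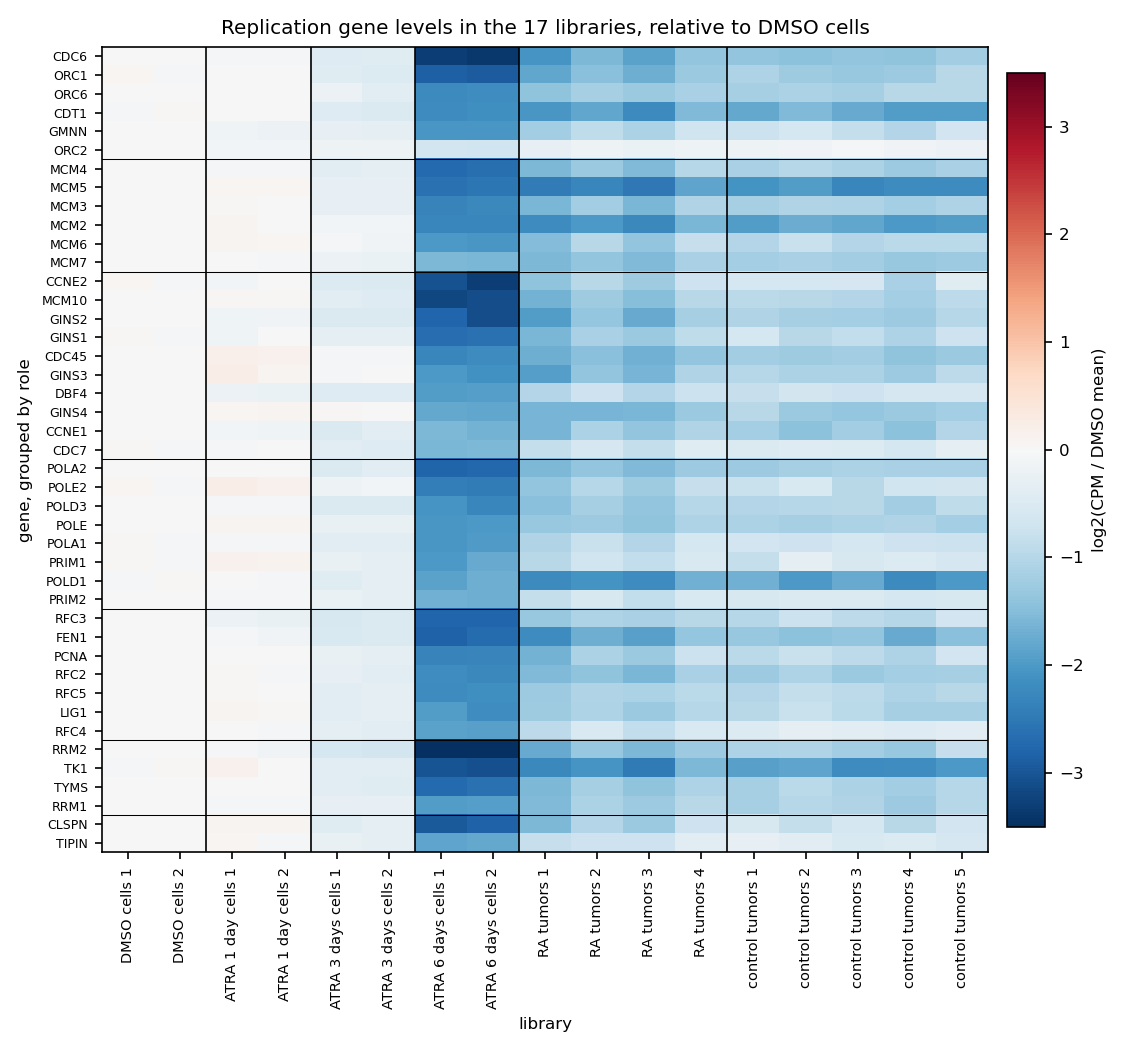
Heat map of log2 (CPM over the DMSO mean) for the 43 replication genes (rows, grouped by role) in the 17 libraries (columns), all scaled together. Every RA tumor lies above both 6-day libraries for 40 of the 43 genes and every control tumor for 42. These orders were not counted over all genes tested. The row of ORC2 is near white in all tumors.

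In tumors the question was whether 13-cis-retinoic acid moved the same genes in mice. None of the 43 was called in RA tumors against control tumors in edgeR's quasi-likelihood test, where 0.0379% of all 21098 genes tested were called lower, and none passed an FDR of 0.05 alone, where 0.218% of all genes were lower. All 43 estimates were below 0, between -0.41 and -0.02 with a median of -0.21, and 22 had an unadjusted p under 0.05, all lower. Of all genes tested, 51.7% had an estimate below 0 and 6.33% were lower at an unadjusted p under 0.05. DESeq2 gave 2 genes at an FDR under 0.05 (POLA2 and RRM2), where 1.05% of all its genes were lower, and edgeR over all 17 libraries gave 7, where 1.3% of all genes were. That last fit pools the spread of cells and tumors, with a variation between replicates of 11%, against 13.9% in tumors alone. These comparisons rest on the same 9 tumors, and the 43 genes moved together between tumors, so the common sign is not 43 separate results.

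The 6 genes with the smallest p were POLA2, ORC1, RRM2, RFC4, CDC45 and RFC3. POLA2 had 27.5, 31.2, 28.0 and 33.1 CPM in RA tumors 1 to 4, against 33.6, 36.5, 37.8, 37.49 and 37.04 CPM in control tumors 1 to 5 (-0.28 ± 0.078, FDR = 0.0868). ORC1 had 14.0, 17.5, 14.7 and 19.3 CPM in RA tumors, against 22.8, 20.5, 19.3, 20.2 and 24.8 CPM in control tumors (-0.39 ± 0.11, FDR = 0.103). RRM2 had 135, 181, 153 and 186 CPM in RA tumors, against 215, 218, 196, 185 and 258 CPM in control tumors (-0.39 ± 0.11, FDR = 0.111). RRM2 overlapped by the narrow margin of RA tumor 4 and control tumor 4. RFC4 had 33.8, 44.1, 35.0 and 43.4 CPM in RA tumors, against 45.9, 50.01, 48.3, 47.0 and 48.8 CPM in control tumors (-0.29 ± 0.087, FDR = 0.112). CDC45 had 20.9, 24.4, 21.2 and 25.3 CPM, against 28.8, 28.5, 28.8, 25.8 and 27.1 CPM (-0.27 ± 0.084, FDR = 0.125). RFC3 had 55.3, 65.7, 62.9 and 69.0 CPM, against 68.9, 81.6, 72.8, 70.1 and 87.2 CPM (-0.27 ± 0.086, FDR = 0.141). On the scale of the tumor fit, every RA tumor lay below every control tumor for 4 of the 43 genes, ORC1, CDC45, POLA2 and RFC4. The margin in ORC1 was 19.31 CPM in RA tumor 4 against 19.32 CPM in control tumor 3. On the scale of all 17 libraries, ORC1, CDC45 and POLA2 overlapped and only RFC4 stayed apart. How many of all genes tested had such an order was not counted.

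The 4 RA tumors differed from each other. RA tumor 1 was below every control tumor for 42 of the 43 genes, RA tumor 3 for 41, RA tumor 2 for 23 and RA tumor 4 for 4. The median log2 difference from the control mean was -0.41 in RA tumor 1, -0.14 in RA tumor 2, -0.38 in RA tumor 3 and 0.01 in RA tumor 4. RA tumor 4 was the highest of the RA tumors for 40 genes, and RA tumor 1 was the lowest of all 9 tumors for 33. None of these orders was counted over all genes tested, so they describe the 43 genes only. Control tumors kept closer together, with medians from -0.11 in control tumor 4 to 0.05 in control tumor 2. Without RA tumor 4, 12 of the 43 genes passed an FDR of 0.05 (ORC1, CDC6, MCM3, MCM4, MCM10, GINS1, GINS2, GINS3, POLA2, RFC4, FEN1 and CLSPN), where 1.18% of all genes tested were lower at that threshold. RA tumor 4 was the highest RA tumor for 40 of these same genes, so leaving it out lowers their RA mean. The 12 passes are therefore not a separate result. Nothing in the labels sets this tumor apart. It had the most counts of the 9, 29078889, and its 8 mitotic markers summed to 1453 CPM, against 1017, 1315 and 1114 CPM in RA tumors 1 to 3 and 1324 to 1549 CPM in control tumors. The part of these measures in the result was not tested.

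**Figure D4:**
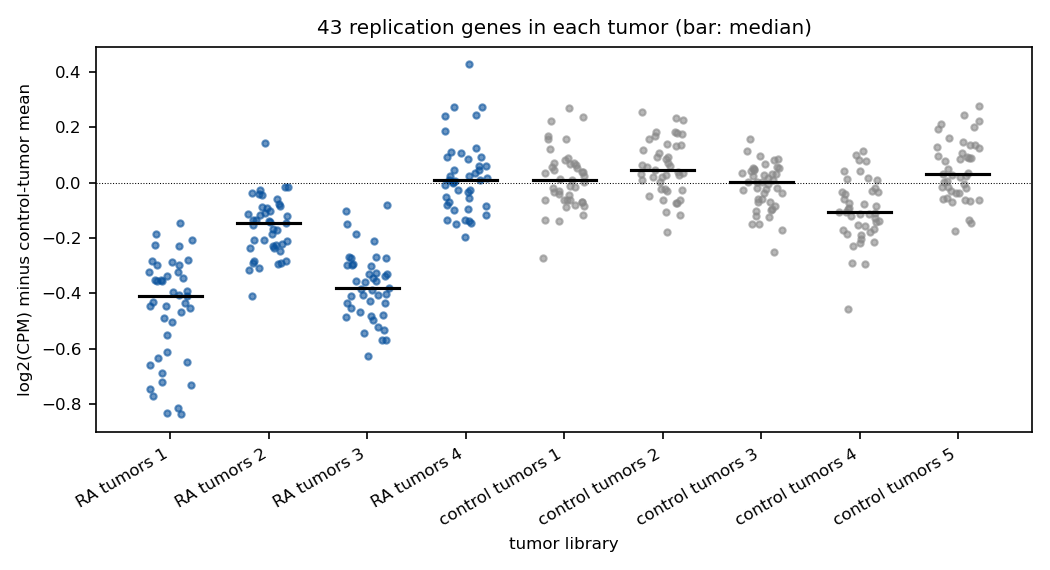
Log2 CPM of each of the 43 replication genes minus its mean in control tumors (y axis) in RA tumors 1 to 4 (blue) and control tumors 1 to 5 (grey), 1 point per gene, with a bar at the median. The medians are -0.41, -0.14, -0.38 and 0.01 in RA tumors 1 to 4 and lie between -0.11 and 0.05 in control tumors.

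The effect in tumors was then set against the 6-day effect in culture, in 1 fit over all 17 libraries that pools the spread of cells and tumors. The difference (RA tumors minus control tumors, less 6-day cells minus DMSO cells, in log2 units) was called above 0 for 42 of the 43 genes, where 7.78% of all 25787 genes tested were, with a median of 2.04. It was widest in RRM2 (3.16 ± 0.18, FDR = 4.89e-10), TK1 (3.02 ± 0.25, FDR = 1.15e-07) and CDC6 (3.01 ± 0.18, FDR = 5.59e-10), and narrowest in ORC2 (0.58 ± 0.085, FDR = 1.13e-05), CDC7 (1.41 ± 0.14, FDR = 1.2e-07) and MCM7 (1.43 ± 0.12, FDR = 1.39e-08). TK1 had 24.2, 27.1, 20.8 and 37.6 CPM in RA tumors, against 30.4, 31.7, 24.8, 25.4 and 28.1 CPM in control tumors (-0.03 ± 0.15), beside its fall to 12.2 and 11.8 CPM in 6-day cells. For ORC2 the tumors had 65.1, 70.2, 68.1 and 69.4 CPM with RA, against 70.6, 72.6, 75.5, 72.9 and 69.0 CPM in controls (-0.08 ± 0.059). CDC7 had 21.8, 25.8, 22.02 and 28.5 CPM in RA tumors, against 27.2, 28.2, 27.9, 25.5 and 30.6 CPM in control tumors (-0.18), and MCM7 had 205, 233, 208 and 272 CPM, against 263, 272, 257, 241 and 251 CPM (-0.16). The RA and control ranges of TK1, ORC2, CDC7 and MCM7 overlapped. CDC6 had 54.5, 75.9, 62.2 and 85.8 CPM in RA tumors, against 86.8, 83.5, 86.6, 85.3 and 97.3 CPM in control tumors (-0.33 ± 0.11). The drugs are stereoisomers given by different routes and for different times, and the hosts, kits and replicate numbers differ too. In the study, treated tumors held ATRA, and the isomers did not differ significantly in their effect on growth in culture. Tumors assayed for the drug were collected after the last treatment, by a figure legend, so exposure at collection may differ as well. The sources of this difference cannot be told apart.

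Control tumors stood below DMSO cells. On the scale of all 17 libraries, every control tumor lay below both DMSO libraries for all 43 genes. Every control tumor lay above both 6-day ATRA libraries for all but POLD1. These orders rest on that scaling and were counted for the 43 genes only, not over all genes tested. In edgeR's test 25 of the 43 were called lower in control tumors than in DMSO cells, where 11.4% of all genes tested were, and all 43 were lower at an FDR under 0.05, where 29.5% of all genes were. The median log2 fold change was -1.08, and that of all genes tested was 0.25. MCM5 had 40.8, 44.7, 35.6, 38.1 and 37.9 CPM in control tumors, against 172 and 177 CPM in DMSO cells (-2.15 ± 0.12, FDR = 2.51e-11). TK1 had 28.7, 30.1, 23.5, 23.8 and 26.6 CPM, against 105 and 111 CPM (-2.02 ± 0.15, FDR = 1.3e-08), and POLD1 had 16.6, 13.2, 15.5, 11.2 and 13.2 CPM, against 50.8 and 54.8 CPM (-1.92 ± 0.13, FDR = 9.9e-11). At the other end, ORC2 had 66.6, 68.7, 71.8, 68.5 and 65.4 CPM, against 75.2 and 74.7 CPM (-0.14 ± 0.058, FDR = 0.0437), RFC4 had 43.3, 47.4, 45.9, 44.1 and 46.2 CPM, against 60.7 and 59.9 CPM (-0.41 ± 0.088, FDR = 0.000329), and TIPIN had 16.8, 15.7, 14.2, 14.7 and 13.6 CPM, against 20.7 and 20.2 CPM (-0.45 ± 0.10, FDR = 0.000787). The number called depended on the scaling. It was 12 with total counts, where 2223 of all 25787 genes tested were called lower, and 8 with upper-quartile scaling, where 1987 were. In the main fit 2945 of all genes were called lower. ORC2 lay above 0 with total counts and upper-quartile scaling (0.06 and 0.13).

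The order of the genes in this comparison followed the base composition of their transcripts. Across the 43 genes, the log2 fold change between control tumors and DMSO cells had a Pearson correlation of -0.81 and a Spearman correlation of -0.83 with the GC content of the canonical transcript, against -0.15 and -0.28 across 15416 protein-coding genes tested. The 8 genes of highest GC (55.8% to 64.8%: MCM7, MCM5, POLE, MCM2, LIG1, TK1, CDT1 and POLD1) had a median of -1.84, and the 8 of lowest GC (34.6% to 40.7%: CCNE2, DBF4, RFC3, CDC7, PRIM1, POLE2, ORC2 and TIPIN) a median of -0.60. The same genes had medians of -2.15 and -1.95 at 6 days of ATRA in culture, where the Pearson correlation with GC was -0.01 over the 43 and the Spearman correlation -0.10. Between RA and control tumors, which share a kit, they were 0.42 and 0.32, and the medians were -0.11 in the 8 genes of highest GC and -0.21 in the 8 of lowest GC. These are descriptions across genes that share libraries, with no test. The library kit differed between tumors and cells, so growth in mice and the kit cannot be told apart.

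**Figure D5:**
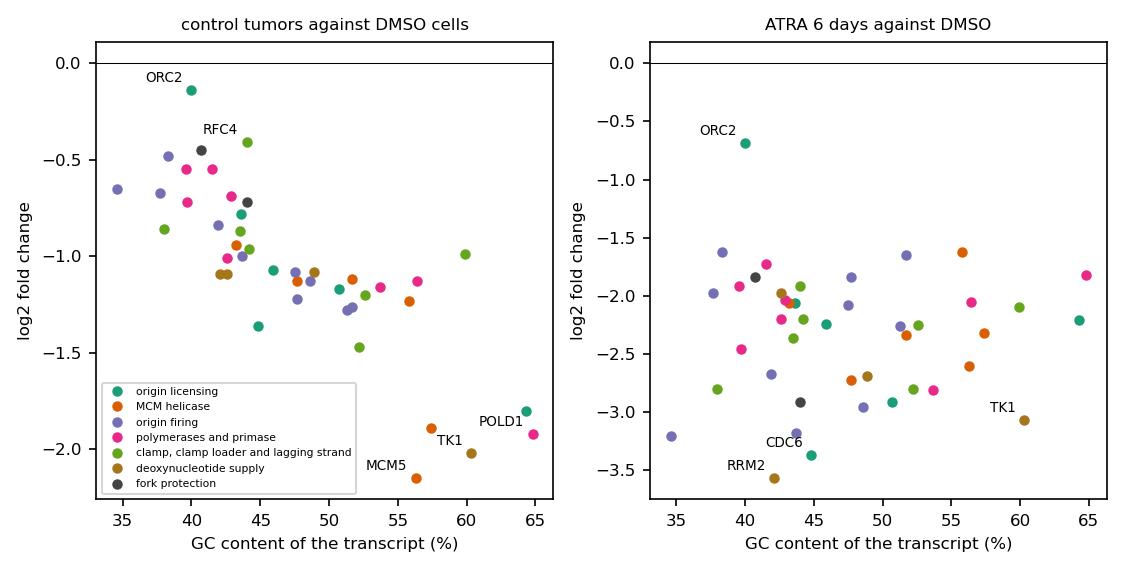
Log2 fold change of the 43 replication genes (y axis) against the GC content of the canonical transcript in % (x axis), for control tumors against DMSO cells (left) and ATRA 6 days against DMSO (right), colored by role. On the left the 8 genes of highest GC have a median of -1.84 and the 8 of lowest GC -0.60, and on the right -2.15 and -1.95.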

How the data were processed

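RNA was sequenced from 8 libraries of CHP-134 cells (Illumina Ribo-Zero Plus stranded kit) and 9 of CHP-134 tumors (KAPA RNA HyperPrep kit with RiboErase). The authors deposited expected counts per gene, without normalization, made with RSEM 1.3.3 from STAR 2.7.10a alignments to hg38 after trimming by Trim Galore 0.4.4, as the submitters' processing notes and the methods state. The annotation release, the strand setting and any removal of mouse reads are not given in the sources used here. Expected counts were rounded. Separate models with a mean per group were fitted to cells, to tumors and to all 17 libraries with edgeR 4.0.16 (R 4.3.3; filterByExpr, minimum count 10; TMM; robust quasi-likelihood test; p adjusted by Benjamini-Hochberg across every gene in the fit, FDR), which tested 20237, 21098 and 25787 genes. Called genes had a difference above 2-fold at an FDR below 0.05. CPM values are scaled by TMM within the fit of cells, of tumors or, between them, of all libraries. Marker sums and shares use total counts. Each SE was taken as log2 fold change divided by the root of F. The procedure was tested on simulated data.

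Groups came from the sample labels. A figure legend of the study calls the 2 culture replicates independent but does not say that they were separate cultures. Their p-values measure the spread between these libraries. Same-numbered libraries did not deviate together. Alternatives were DESeq2 1.42.0, 3 other scalings, no filter, a replicate block, other sets of libraries and each library left out. Positions, lengths and GC come from GENCODE v44 on hg38, and promoters from RefSeq. The members and lists were chosen with earlier results of these data known. By rule, values in every library are given at 6 days for the 2 lowest and the highest log2 fold change of each role group and for uncalled members. At other times, between tumors and cells, and for the difference of effects they are given for the 3 lowest and 3 highest, and in RA tumors for the 6 smallest p. Of other replication genes, the 5 that fell most and those called higher were named. CCNE1, PCNA and other members carry a log2 fold change only. ORC3 and the genes not called among the other replication genes were named after their values were seen.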

Additional observations from a re-analysis of the deposited data

Results flagged for a closer look

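In RA tumors, GINS4 (a helicase subunit) stood apart in RA tumor 4, at 11.8 CPM against 9.51 to 9.68 CPM in the other 3. In control tumors, CDC6 stood apart in control tumor 5, at 97.3 CPM against 83.5 to 86.8 CPM in the other 4. These were 2 of 86 combinations of gene and tumor group examined with Dixon's test, where chance flags about 1 in 20.

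The RA effect in tumors and the 6-day ATRA effect in cells differed by the test of the difference itself, in the fit over all libraries, for RRM2 (3.16), TK1 (3.02), CDC6 (3.01), MCM7 (1.43), CDC7 (1.41) and ORC2 (0.58), all log2 units above 0.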

How the results depend on the processing

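The counts of genes called at 6 days (42), between days 3 and 6 (42) and in the difference of effects (42) were the same under every alternative. At 1 day, the count higher at an FDR under 0.05 was 3 with DESeq2 and 4 to 8 with each library left out, and the count lower 2 to 4. For RA tumors, the count lower at that FDR was 2 with DESeq2, 7 with all 17 libraries and 0 to 12 with each tumor left out, 12 without RA tumor 4. Variation between replicates (the biological coefficient of variation) was 13.9% in tumors and 2.65% in cells. For control tumors against DMSO cells, 12 were called with total counts and 8 with upper-quartile scaling, where ORC2 turned to 0.06 and 0.13, and 23 to 27 with each library left out; the share of all calls that were higher was 73.4%, 80.0% with total counts and 82.3% with upper-quartile scaling.

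Median log2 fold changes moved by more than the spread between replicates in these cases. With DESeq2 size factors they were -0.34 at 3 days and -0.32 between days 1 and 3, and with DESeq2 -0.35 at 3 days. With total counts they were -2.20 at 6 days, -1.95 between days 3 and 6 and -0.89 in control tumors. With upper-quartile scaling they were -2.08 at 6 days, -0.28 between days 1 and 3, -1.84 between days 3 and 6 and -0.81 in control tumors, and with no filter -2.29 at 6 days, -2.03 between days 3 and 6 and -1.17 in control tumors. The median of all genes in control tumors against DMSO cells was 0.25, 0.44 with total counts and 0.51 with upper-quartile scaling. Ranges with each library left out were 0.00 to 0.02 at 1 day, -0.34 to -0.31 at 3 days, -2.26 to -2.23 at 6 days, -0.33 to -0.32 between days 1 and 3, -2.07 to -1.97 between days 3 and 6, -0.31 to -0.16 in RA tumors, -1.09 to -1.02 in control tumors against DMSO cells and 1.91 to 2.09 for the difference of effects. The cause of these shifts was not tested.

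The replicate numbers of the labels did not pair the libraries (correlations of -0.03 to 0.01 in cells and -0.33 to 0.11 in tumors). With the replicate block, 42 genes were called at 6 days, 25 in control tumors against DMSO cells with a median of -1.13, and 0 in RA tumors.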
